A study of Mus musculus with 4 samples.

Results

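In mouse D3 embryonic stem cells, 3697 of the 5829 Halo-Sox2 binding calls kept here had no counterpart in any of the other 3 Sox2 lists of the study. These calls, the Halo-Sox2-only peaks, make up 63.4% of the kept list (95% Wilson interval 62.2 to 64.7, counting error only). They were selected on the called positions alone: a peak belongs to them when no peak centre of the endogenous Sox2, Halo-Sox2M or Halo-Sox2D list lay within 500 bp of its own centre. Peaks of the mitochondrial genome, of unplaced sequence and of 11 dense 100-kb bins, each with at least 15 peaks in some list, were dropped first, which removed 729 of the 6558 deposited Halo-Sox2 peaks. The remaining kept Halo-Sox2 peaks form the comparison groups: 1467 had an endogenous Sox2 centre within 500 bp, and 665 had only a Halo-Sox2M or Halo-Sox2D centre there.

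The study mapped Sox2 binding by ChIP-exo, a form of chromatin immunoprecipitation in which an exonuclease trims the bound DNA so that the called positions are narrow. It has 4 libraries from D3 mouse embryonic stem cells, 1 for each form of Sox2, so no form has a replicate and no comparison below has a test between samples. Endogenous Sox2 was captured with an antibody against Sox2, whereas the Halo fusions were captured by their HaloTag, a protein tag that attaches covalently to HaloLink resin. The deposited list of endogenous Sox2 holds 7153 peaks, that of Halo-Sox2M 1711 and that of Halo-Sox2D 13833. Halo-Sox2 is labelled with no change to Sox2. Halo-Sox2M carries the changes M47G and M51G and a change at F50, and Halo-Sox2D consists of residues 1 to 120. The lists give positions alone, with no read counts, peak scores or strand, so the depth behind a peak is unknown, and a Halo-Sox2-only peak is one that was not called elsewhere, not one shown to be unbound elsewhere. The capture reagent differs between endogenous Sox2 and the fusions and cannot be told apart from the form of Sox2 in that comparison. How the fusions were expressed beside the cells' own Sox2, and whether a line is 1 clone, is not given in the sources used here, and lists of positions cannot check the cells against expressed markers.

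Sox2 is a transcription factor of embryonic stem cells that binds DNA through its HMG box, which inserts into the minor groove and bends the helix. Its short recognition element, read as CATTGT on one strand, often stands beside an octamer element, ATGCAAAT, that is bound by Pou5f1 (Oct4). With Pou5f1 and Nanog it occupies enhancers of genes that keep embryonic stem cells undifferentiated, and many of those enhancers lie away from promoters.

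A total of 141 Halo-Sox2-only peaks had their centre in a promoter window of the RefSeq table, 250 bases before to 50 bases after a transcription start (build GRCm38.p6). The first set of sequences shows every promoter with a Halo-Sox2-only peak in which the letters CATTGT stood within 50 bp of the peak centre, with that match in capitals. All 3 are printed 5′ to 3′ on the gene's strand, and positions are on mm10, which GRCm38.p6 equals in its chromosome coordinates. Fam168a is on the plus strand at chr7:100706446-100706467, Ly6g6d on the minus strand at chr17:35081341-35081373, and Cfl1, which encodes the actin-severing protein cofilin, on the plus strand at chr19:5490457-5490486.
Fam168a: tgggagtcCATTGTctgtgacc
Ly6g6d: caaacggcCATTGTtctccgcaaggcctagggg
Cfl1: cggaaggccgccccgcccctCATTGTgcgg

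The second set shows all 8 promoters with a Halo-Sox2-only peak in which the palindrome CACGTG, the E-box read by bHLH factors such as Myc and Usf, stood within 50 bp of the centre. It is shown because it was found in more of these promoters than CATTGT. Capitals mark CACGTG. Dpm2 (plus, chr2:32570801-32570848) encodes a subunit of the dolichol-phosphate mannose synthase. Cstf1 (plus, chr2:172370910-172370942) encodes an mRNA cleavage factor, and Eif4h (minus, chr5:134639492-134639516) a translation initiation factor. Fdx2 (minus, chr9:21073510-21073539) encodes a mitochondrial ferredoxin and G6pc3 (plus, chr11:102189592-102189649) a glucose-6-phosphatase. Trmt61b (minus, chr17:71598761-71598790) carries the name of a tRNA methyltransferase, but the annotation used here lists it as a long noncoding RNA gene. Diaph2 (plus, chrX:129749640-129749678) encodes a formin. The last is 5430440P10Rik (plus, chr14:105427545-105427574).
Dpm2: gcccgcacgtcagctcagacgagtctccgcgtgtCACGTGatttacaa
Cstf1: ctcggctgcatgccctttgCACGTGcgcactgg
Eif4h: ggccgccgcacCACGTGggccgcag
Fdx2: agcatgctaggtcttccggtCACGTGgcct
G6pc3: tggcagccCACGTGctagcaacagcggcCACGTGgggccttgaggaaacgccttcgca
Trmt61b: gcacggcggtggctacgtcaCACGTGtgcg
Diaph2: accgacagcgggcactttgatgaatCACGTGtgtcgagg
5430440P10Rik: gcacctgtttccgggatgcaCACGTGctca

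The third set shows the called positions themselves, in capitals, in promoters with 2 calls, at a listed gene and in repeated gene families. In Tbc1d13 (plus, chr2:30133559-30133618), Timp4 (minus, chr6:115252248-115252350) and Armcx1 (plus, chrX:134717719-134717799) the window holds 2 Halo-Sox2-only peaks each. Timp4 encodes an inhibitor of matrix metalloproteinases. Kdm5b (plus, chr1:134560181-134560210), a histone H3K4 demethylase gene of the chromatin list below, has its peak just after the start. H2ac20 (minus, chr3:96220927-96220987), H2ac23 (plus, chr13:21810256-21810316), H2ac10 (plus, chr13:23533781-23533841) and H4c3 (minus, chr13:23698599-23698659) are replication-dependent histone genes. Gm13287 (plus, chr4:88803179-88803239) belongs to a cluster of interferon-like genes described below. The histone promoters and the promoters with 2 peaks were chosen after their values were seen.
Tbc1d13: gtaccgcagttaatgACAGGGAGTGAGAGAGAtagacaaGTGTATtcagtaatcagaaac
Timp4: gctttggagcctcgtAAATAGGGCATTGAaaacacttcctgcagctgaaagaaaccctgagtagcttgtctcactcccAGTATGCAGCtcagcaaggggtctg
Armcx1: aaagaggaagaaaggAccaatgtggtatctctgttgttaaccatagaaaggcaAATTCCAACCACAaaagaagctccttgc
Kdm5b: cgtcggaggAAGGCTGAAAAAgccctaggt
H2ac20: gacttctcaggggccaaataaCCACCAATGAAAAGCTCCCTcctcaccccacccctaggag
H2ac23: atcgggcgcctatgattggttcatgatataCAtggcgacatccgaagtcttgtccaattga
H2ac10: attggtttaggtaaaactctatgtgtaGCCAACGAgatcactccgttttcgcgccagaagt
H4c3: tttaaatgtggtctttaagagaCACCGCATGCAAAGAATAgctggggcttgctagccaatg
Gm13287: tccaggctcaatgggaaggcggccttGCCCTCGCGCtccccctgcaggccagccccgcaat

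The letters of the Sox element were found around few of the Halo-Sox2-only peaks in promoters. CATTGT, on either strand, lay within 50 bp of the centre in 3 of 141 such peaks (2.13%, interval 0.726 to 6.07), against 4.03% of all promoter windows over the same stretches. Of the 31 Halo-Sox2 peaks near an endogenous Sox2 peak that fell in a promoter, 6 had it (19.4%, interval 9.19 to 36.3), and of the 60 near only a mutant peak, 8 had it (13.3%, interval 6.91 to 24.2). Neighbouring peaks, which are more frequent in both of these groups, can share the same match. The number of separate promoters behind these counts is not given here. Under the rule used here, the interval of the Halo-Sox2-only peaks overlapped that of neither other group and included the share of all promoters. At 100 bp either side, 8 of 141 had it (5.67%, interval 2.90 to 10.8; all promoters 7.37%), against 25.8% near endogenous Sox2 (13.7 to 43.2) and 16.7% near only a mutant (9.31 to 28.0), and the last interval overlaps that of the Halo-Sox2-only peaks. At 50 bp the share was 5.56% (11 of 198, interval 3.13 to 9.67) when the Halo-Sox2D list was left out of the rule. It was 4.52% (7 of 155, 2.20 to 9.03) without the endogenous list and 2.99% (4 of 134, 1.17 to 7.42) with neighbouring peaks joined. Each of these intervals overlaps the one printed above for peaks near only a mutant. The interval without Halo-Sox2D also overlaps the one for peaks near endogenous Sox2, so the separation at 50 bp did not hold under these alternatives. The longer form CATTGTT, which contains the shorter one, stood near 1 of the 141 peaks (0.709%, all promoters 1.17%). The octamer ATGCAAAT stood near 1 (0.709%, all promoters 0.562%), and the joint Sox-octamer word TTGTNATGC near none (all promoters 0.223%). These matches describe promoters only and were not extended to the rest because no genome sequence was used here.

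Words of general promoter factors were searched in the same stretches. CACGTG lay within 50 bp of 8 of the 141 peaks (5.67%, interval 2.90 to 10.8), against 2.32% of all promoters. CCGGAA, the core read by Ets factors, lay near 16 (11.3%, interval 7.11 to 17.6), against 5.14%. Both intervals lie above the share of all promoters, but neither word set the group apart from the others. CACGTG was found near 1 of 31 peaks of the endogenous group (interval 0.572 to 16.2) and 0 of 60 of the mutant group (0 to 6.02), and CCGGAA near 3 of 31 (3.35 to 24.9) and 12 of 60 (11.8 to 31.8), intervals that all overlap those of the Halo-Sox2-only peaks. CCAAT, read by NF-Y, lay near 21 (14.9%, interval 9.95 to 21.7), close to the 14.7% of all promoters, and the GC-box CCCCGCCCC near 7 (4.96%, all promoters 4.03%). The Klf word CCACACCC (all promoters 1.14%) and the Esrrb word TCAAGGTCA (all promoters 0.125%) lay near none, where the interval reaches 2.65%. The median GC content of the promoter windows was 57.4% for the Halo-Sox2-only peaks, 51.5% for peaks near endogenous Sox2 and 55.8% for peaks near only a mutant. For all promoters, the background of the word shares, the mean was 53.8%. The part of GC content in the word counts was not tested.

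The distance to the other lists is the value that chose the peaks and is given as a description. The nearest centre of any other list was a median 31.2 kb away (quartiles 8.30 and 93.2 kb). It lay within 1 kb for 136 peaks (3.68%), within 2 kb for 341 (9.22%) and beyond 100 kb for 883 (23.9%), so few Halo-Sox2-only peaks bordered the 500-bp limit. The nearest other list was Halo-Sox2D, which is also the longest list, for 2466 peaks (66.7%), endogenous Sox2 for 991 (26.8%) and Halo-Sox2M, the shortest, for 240 (6.49%). By list, the median distance was 119 kb to endogenous Sox2, 46.5 kb to Halo-Sox2D and 1056 kb to Halo-Sox2M. The 2 peaks just inside the limit both stood 500.5 bp from a neighbour: one lies within Aldh3a1, with Halo-Sox2D nearest, and the other lies 7.42 kb from Dlgap1, with endogenous Sox2 nearest. Just outside it, a peak within Sox2 itself had an endogenous Sox2 centre at 500 bp, and a peak 10.05 kb from Zfp710 had a Halo-Sox2D centre at 498.5 bp.

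Halo-Sox2-only peaks lay inside genes more often than those shared with endogenous Sox2. Of the 3697, 1786 had their centre inside a protein-coding gene (48.3%, interval 46.7 to 49.9), against 606 of 1467 near endogenous Sox2 (41.3%, interval 38.8 to 43.8) and 264 of 665 near only a mutant (39.7%, interval 36.0 to 43.5). The difference was 7.001 percentage points from the endogenous group (95% Newcombe interval 3.995 to 9.97) and 8.61 points from the mutant group (4.51 to 12.6). The share lying 1 to 50 kb outside the nearest protein-coding gene was correspondingly 28.4% for Halo-Sox2 alone and 36.0% for peaks near endogenous Sox2. Beyond 50 kb the shares were 17.9% and 19.0%, and the interval of that difference (-3.45 to 1.26 points) includes 0. All such intervals treat peaks as independent, which neighbouring peaks are not.

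**Figure D1:**
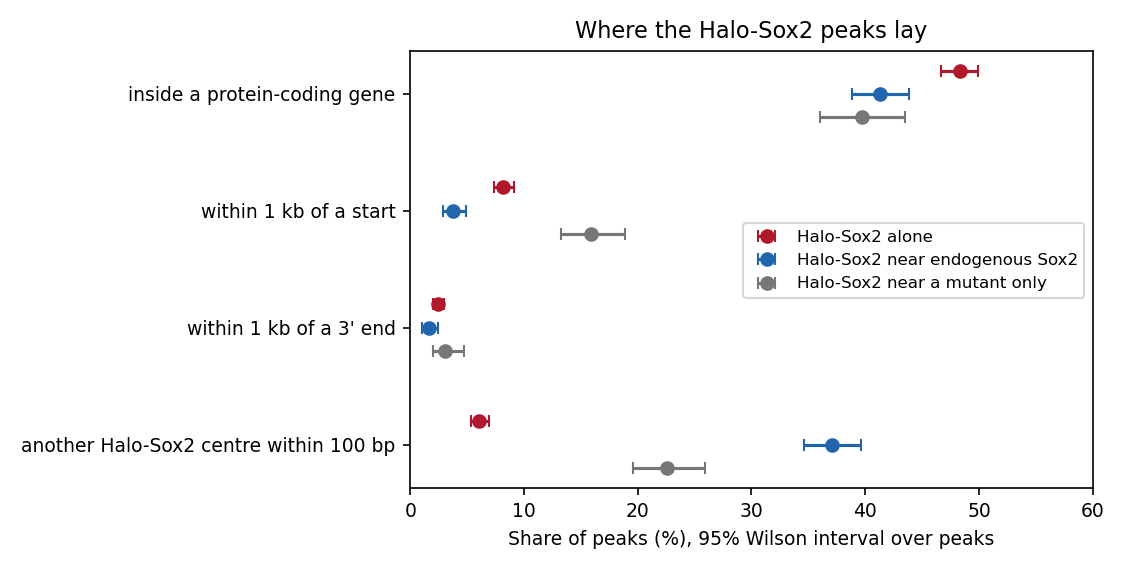
Share of Halo-Sox2 peaks, in percent on the horizontal axis, that lay inside a protein-coding gene, within 1 kb of a start, within 1 kb of a 3′ end, or within 100 bp of another Halo-Sox2 centre. Points are shares and bars 95% Wilson intervals over peaks, for 3697 peaks alone, 1467 near endogenous Sox2 and 665 near only a mutant; for the start and 3′ end only peaks outside the chromosome that lacks strand data are counted. The alone group is highest inside genes (48.3%) and lowest in close neighbours (6.09%).

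Near gene ends the Halo-Sox2-only peaks stood between the other groups. A start or a 3′ end of a protein-coding gene was 1 kb or less away for 411 of them (11.1%, interval 10.1 to 12.2), 86 of those near endogenous Sox2 (5.86%, interval 4.77 to 7.18) and 132 of those near only a mutant (19.8%, interval 16.995 to 23.1). With strand and transcription starts taken from the promoter table, which has a start at the gene table's own end for 60.5% of its protein-coding genes, the excess over the endogenous group was at starts. There, 294 of 3585 lay within 1 kb of a start (8.20%, interval 7.35 to 9.14), against 54 of 1429 (3.78%) and 103 of 648 (15.9%). At 3′ ends the values were 88 (2.45%), 23 (1.61%) and 20 (3.09%), and the difference from the endogenous group, 0.845 points, has an interval that includes 0 (-0.0715 to 1.62).

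Around starts the Halo-Sox2-only peaks were densest just upstream. In the 250 bp before the start lay 90 of 3585 peaks (2.51%), in the 250 bp after it 55 (1.53%), and in the bin from 2000 to 1750 bp upstream 11 (0.307%). Peaks near endogenous Sox2 had 20 of 1429 (1.40%) and 8 (0.560%) in the bins before and after the start. Peaks near only a mutant had 44 of 648 (6.79%) and 18 (2.78%). All groups had their highest bin directly before the start, at different heights. Of the 141 Halo-Sox2-only peaks in promoter windows, 116 belonged to protein-coding genes and 25 to long noncoding RNA genes.

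**Figure D2:**
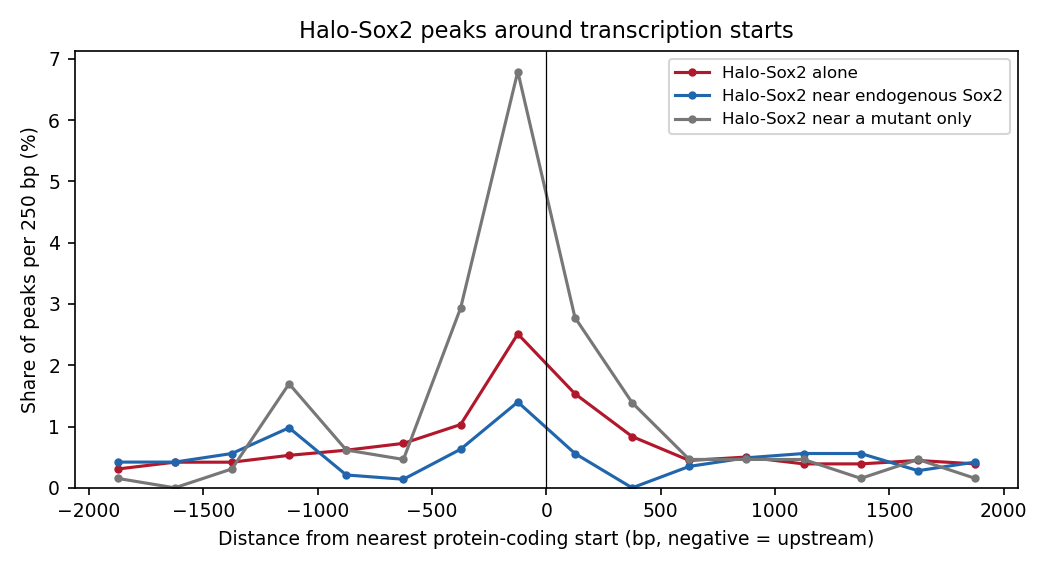
Share of Halo-Sox2 peaks per 250-bp bin (vertical axis, percent) against distance from the nearest protein-coding transcription start (horizontal axis, bp, negative upstream), for peaks alone, near endogenous Sox2 and near only a mutant. Lines join bin values with no replicates; the bin just before the start holds 2.51%, 1.40% and 6.79%.

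Most Halo-Sox2-only peaks were solitary calls. A second Halo-Sox2 centre lay within 100 bp of 225 of them (6.09%, interval 5.36 to 6.90), against 544 of 1467 near endogenous Sox2 (37.1%, interval 34.6 to 39.6) and 150 of 665 near only a mutant (22.6%, interval 19.5 to 25.9). The difference from the endogenous group was -31.0 points (-33.6 to -28.4), and within 500 bp it was -36.6 points (-39.3 to -33.9). Chained at 500 bp or less, the 3697 peaks formed 3515 groups, of which 3348 held a single peak, 154 held 2, 11 held 3 and 2 held 4. Among those with a neighbour within 500 bp, the median spacing was 54 bp, against 45.5 bp near endogenous Sox2 and 39.5 bp near only a mutant. In 28 cases (0.757%) the called interval overlapped another Halo-Sox2 call, against 64 (4.36%) near endogenous Sox2. Called intervals ran from 1 to 20 bp in all 4 lists, around a median of 11 bp in every list and every group. Since all lists share these limits and this median, width says nothing on how the groups differ. Of the Halo-Sox2-only peaks, 173 (4.68%) were 1 bp wide and 180 (4.87%) were 20 bp wide.

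**Figure D3:**
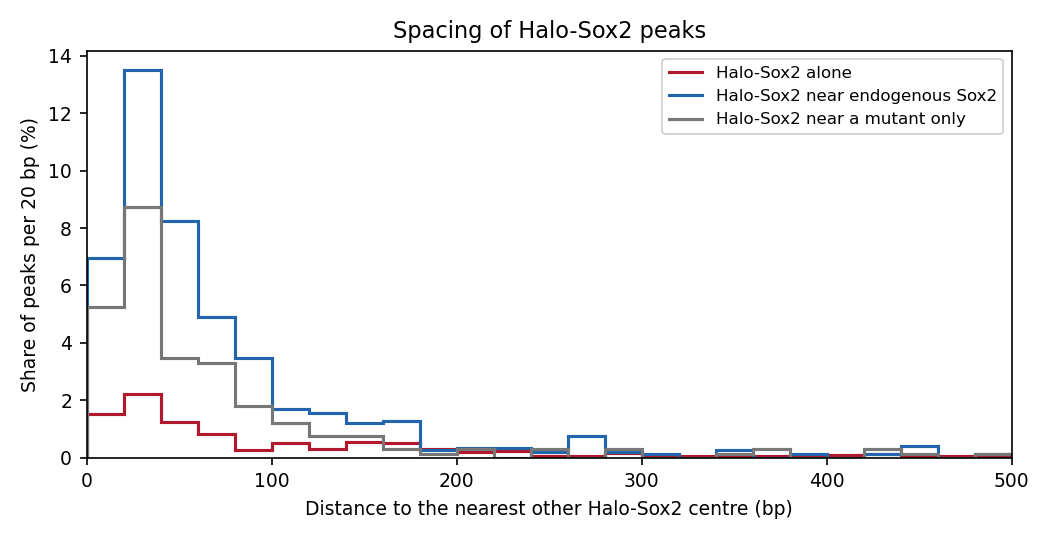
Share of Halo-Sox2 peaks per 20-bp bin (vertical axis, percent) by distance to the nearest other Halo-Sox2 centre (horizontal axis, bp), for the same 3 groups; peaks with no neighbour within 500 bp are not drawn. The alone group reaches 2.22% between 20 and 40 bp, below both other groups there.

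The largest groups of neighbouring Halo-Sox2-only peaks held 4 each and stood far from the other lists. On chromosome 4, 4 peaks of 11, 16, 12 and 1 bp spanned 211 bp (146266773 to 146266983), 68.1 kb from Zfp600, a zinc finger gene, and 105 kb from any other list. On chromosome 5, 4 peaks of 20, 2, 3 and 4 bp spanned 104 bp (8488988 to 8489091), 1.30 kb from Rundc3b and 68.9 kb from any other list. Of the 11 groups of 3, the first 6 in chromosome order are named. They lay 0.459 kb from Sp9, a zinc finger transcription factor gene of the developing forebrain and limb (span 288 bp), and inside Tm9sf4 (234 bp). Further ones lay 3.21 kb from Col16a1, a collagen gene (339 bp), inside Rell1 (37 bp), inside 4930522L14Rik (38 bp) and 21.4 kb from Zfp11 (340 bp). In Tm9sf4, Rell1 and 4930522L14Rik, 2 of the 3 calls overlapped each other.

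By chromosome, the share of Halo-Sox2 peaks that stood alone ranged from 59.0% on chromosome 10 (167 of 283) to 69.3% on the X (79 of 114) and 76.9% on the Y (10 of 13, interval 49.7 to 91.8). Chromosome 2 held the most, 288.

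The genes near these peaks were counted against all protein-coding genes. Of 21887 protein-coding genes, 5415 (24.7%) had a Halo-Sox2-only peak in the gene or within 50 kb, 1340 (6.12%) had 2 or more, and 1719 (7.85%) had 1 in the gene or within 1 kb. A Halo-Sox2 peak shared with endogenous Sox2 lay in the 50-kb window of 1705 (7.79%). Among the 5415 genes, 3231 (59.7%) had no endogenous Sox2 peak in the same window, and 1026 (18.9%) had no peak of any other list.

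Genes of the pluripotency network and of its signals had a Halo-Sox2-only peak more often than genes at large under the rule used here. This did not hold under all alternatives of the rule. The lists were chosen with earlier results of these data known, so the shares and their intervals are descriptions. In the pluripotency list, 17 of 40 genes had one within 50 kb (42.5%, interval 28.5 to 57.8), and in the list of signalling genes, which holds ligands, receptors and targets of the Fgf, Lif, Wnt, Nodal and Bmp pathways, 17 of 30 did (56.7%, interval 39.2 to 72.6). Both lists also had many shared peaks: 17 of 40 (42.5%) and 12 of 30 (40%) had a Halo-Sox2 peak near endogenous Sox2, against 7.79% of all genes. When bins of 5 or more peaks were dropped as well, both lists had 10 genes left: the share was 25% for pluripotency (interval 14.2 to 40.2) and 33.3% for signalling (19.2 to 51.2), against 22.3% of all genes, which both intervals include. With the limit of the rule at 5 kb the shares were 30% (18.1 to 45.4) and 26.7% (14.2 to 44.4), against 20.5%, which again lies within both. With a window of 20 kb they were 27.5% (16.1 to 42.8) and 43.3% (27.4 to 60.8), against 15.3%. Of those with a Halo-Sox2-only peak, 2 of the 17 pluripotency genes and 4 of the 17 signalling genes lacked an endogenous Sox2 peak in the window. Among all protein-coding genes with a Halo-Sox2-only peak 59.7% lacked it. Pluripotency genes without a Halo-Sox2-only peak also mostly had an endogenous one, whereas most such signalling genes had none. Of the chromatin regulators 9 of 30 (30%) had a Halo-Sox2-only peak, and 10 of 30 a shared one.

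In the other lists the interval of the share included the 24.7% of genes at large. A shared peak lay near 3 of 30 neural genes, 1 of 20 mesendoderm genes and 1 of 14 trophoblast genes. A Halo-Sox2-only peak lay near 7 of 30 neural genes (23.3%, interval 11.8 to 40.9), 5 of 20 mesendoderm genes (25%, 11.2 to 46.9) and 4 of 14 trophoblast genes (28.6%, 11.7 to 54.6). It lay near 7 of 20 housekeeping genes (35%, 18.1 to 56.7), where only 1 gene had a shared peak. The markers of cell types that a stem cell culture could hold or lacks gave 3 of 20 fibroblast genes (15%, 5.24 to 36.0) and 2 of 20 genes of other tissues (10%, 2.79 to 30.1). Of these mesendoderm genes, all 5 (Foxa2, Tbx6, Eomes, Gata6 and Hhex) had no endogenous Sox2 peak in the window, and neither did 6 of the 7 neural genes. Most genes of both whole lists lacked an endogenous Sox2 peak too. Of all protein-coding genes with a Halo-Sox2-only peak, 59.7% lacked one, so the lack was common beyond these lists. The share among all protein-coding genes without a Halo-Sox2-only peak is not given here. Windows of neighbouring genes overlap, so Lefty1 and Lefty2, Olig1 and Olig2, Dppa2 and Dppa4, and Dcn and Lum have a peak in common, and the 3 fibroblast genes rest on 2 peaks.

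**Figure D4:**
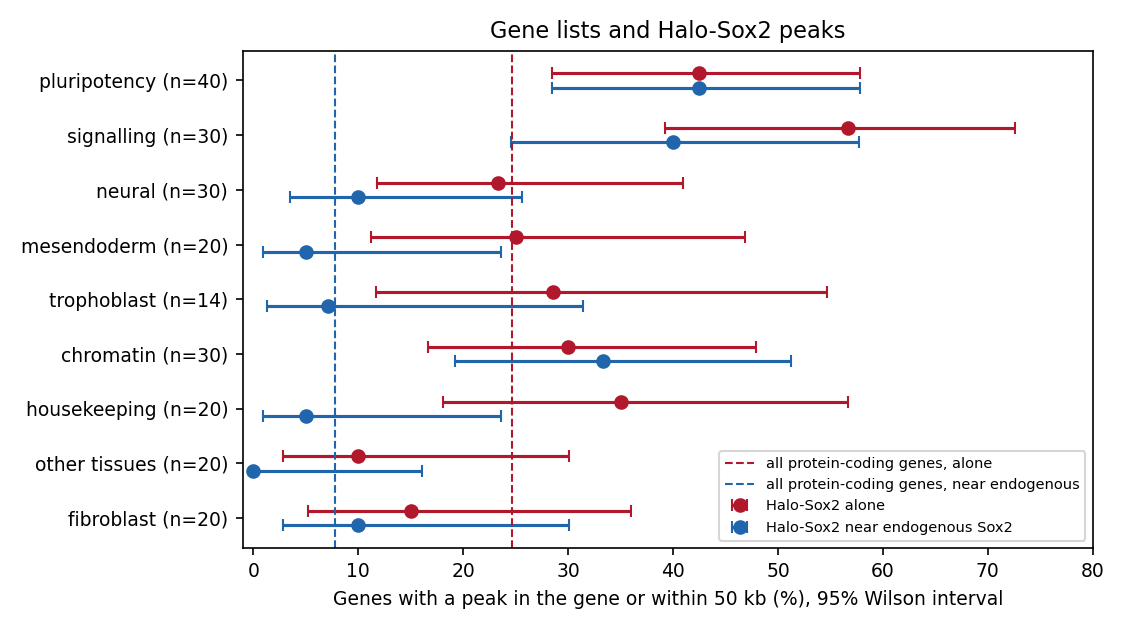
Share of genes in each of 9 lists (n in the labels) with a Halo-Sox2 peak in the gene or within 50 kb (horizontal axis, percent), for peaks alone and peaks near endogenous Sox2, with 95% Wilson intervals over genes. Dashed lines mark all protein-coding genes, 24.7% and 7.79%. The shares of pluripotency, signalling and chromatin lie above both lines, but for chromatin the interval of peaks alone (16.7 to 47.9) includes 24.7%. The lists were chosen with earlier results of these data known.

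Among the core factors, the Halo-Sox2-only peaks lay at a distance from the gene. Sox2 on chromosome 3 had 2, at 34668600 to 34668607 and 34668614 to 34668623, which stood 16.1 and 16.2 kb past the gene's upper end and 14.6 kb from any other list. Its window also held 1 other Halo-Sox2, 4 endogenous Sox2, 1 Halo-Sox2M and 3 Halo-Sox2D peaks. Nanog, a homeobox factor of the same network, had 2, at 28.2 and 37.2 kb beyond its upper end, of which the nearer was 0.767 kb from a Halo-Sox2D centre. Pou5f1, which encodes Oct4, had none, although 3 Halo-Sox2, 10 endogenous Sox2 and 7 Halo-Sox2D peaks lay in its window. The core genes thus did not share a pattern.

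Further pluripotency genes had Halo-Sox2-only peaks inside or outside the gene. Klf5, a Krüppel-like factor gene, had 1 inside (chromosome 14, 99312736 to 99312752) and 1 at 24.1 kb above, among 9 endogenous Sox2 peaks. Tbx3, a T-box factor gene, had 2 at 22.0 and 25.2 kb above the gene, with no endogenous Sox2 peak and 6 Halo-Sox2D peaks in the window. Prdm14, which represses Fgf signalling genes in stem cells, had 1 at 25.1 kb below and 1 at 5.04 kb above. Those 3 genes differ in what accompanied them, from many endogenous peaks at Klf5 to none at Tbx3. Nr0b1 (Dax1), an orphan nuclear receptor gene on the X, had 1 inside the gene (86193740 to 86193757) and no peak of any other list in its window, the nearest being 177 kb away. Mycn had 1 inside the gene (chromosome 12, 12936692 to 12936707), 1.90 kb from a Halo-Sox2D centre. Dppa5a had 1 inside, 1.62 kb from an endogenous centre, and the 1-bp peak within Dppa2 is the one also counted for Dppa4, which had another 42.2 kb below. Tead4, a Hippo pathway factor gene of the trophoblast list, had 3 outside the gene, each over 20 kb from any other list.

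The highest count of any listed gene, 3, was reached at Tead4 and at 4 genes of signalling pathways, of which Tcf7l1 stands on the pluripotency list. Etv5, an Ets factor gene induced by Fgf signalling, had 3: one inside the gene (chromosome 16, 22402743 to 22402750) and 2 close together, 2.84 and 2.88 kb upstream of the start. Its window held 3 endogenous and 11 Halo-Sox2D peaks. Tcf7l1, the Wnt pathway repressor Tcf3, had 2 inside and 1 at 35.8 kb upstream of the start, among 6 endogenous and 12 Halo-Sox2D peaks. Wnt3, a Wnt ligand gene, differed from these, since its 3 peaks stood 51.1, 73.3 and 106 kb from any other list and its window held no endogenous Sox2 and 1 Halo-Sox2D peak. Spry4, an inhibitor of receptor tyrosine kinase signalling, had 1 inside the gene, 0.509 kb from an endogenous centre, and 2 at 27.7 and 28.4 kb above.

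Receptors and further targets had fewer. Fgfr1 had 1 inside and 1 at 23.3 kb above, and Fzd7, a Wnt receptor gene, had 2 at 9.10 and 6.59 kb upstream. Fgfr2 had 1 at 0.777 kb after the start, where Halo-Sox2M, endogenous Sox2 and Halo-Sox2D centres stood 1.14, 1.15 and 1.26 kb away. At Fgfr2 every other form was thus called outside the limit and within the same stretch of the locus. Etv4 had 1 inside, 0.826 kb from an endogenous centre, and the single peak at Bmp4 stood 34.6 kb upstream.

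Of the chromatin regulators, Kdm5b had a peak centred 17.5 bp after its start, in the sequence printed above, 3.16 kb from Halo-Sox2D and 10.6 kb from endogenous Sox2. Its second lay 16.5 kb into the gene. Jarid2, a Polycomb cofactor gene with 15 endogenous peaks in its window, had 2 inside, at 32.9 and 100.03 kb from the start. Cbx7, a Polycomb subunit gene, had 1 inside and 1 at 12.98 kb below. Tet2, which encodes a 5-methylcytosine oxidase, had 1 inside, 1.57 kb from endogenous Sox2, whereas the one in Chd7, a chromatin remodeller gene, was 88.6 kb from any other list. Dnmt3l and Kdm4c had 1 inside each, with no endogenous peak in the window.

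The genes named from the neural list and the further lists below had 1 or 2 each. Sox1, a relative of Sox2 on the neural list, had 2 at 32.3 and 44.1 kb above the gene, with no endogenous peak in its window. Neurog1 had 2 within a stretch of 50 bp, 34.3 and 34.2 kb below. Lhx2 had 1 at 1.57 kb after its start and Olig1 1 at 0.26 kb below the gene, 34.6 and 65.2 kb from any other list. Tfap2a, a trophoblast and neural crest gene, had 1 inside, 2.96 kb from endogenous Sox2. Dcn, a fibroblast gene, had 1 at 45.0 kb with the nearest other list 811 kb away. Among the housekeeping genes, Eef2 had 1 at 0.712 kb upstream of its start, Actb 1 at 12.9 kb above and B2m 1 at 29.1 kb upstream, and Rpl13a had 1 at 8.82 kb upstream and 1 inside that is described with the small RNA genes. The peak counted for B2m lies in the promoter window of another gene, Spg11.

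The genes with the most Halo-Sox2-only peaks included long genes, a zinc finger region, an array of copies and short genes beside small RNA genes. Dlgap1, a synaptic scaffold gene 852 kb long, had 10 in or within 50 kb, of which 6 were inside, and 9 endogenous Sox2 and 7 Halo-Sox2D peaks. Zfp993 (479 kb) had 10 and Zfp978 (267 kb) 9, both in a zinc finger gene region of chromosome 4 where other lists had 5 to 13 peaks each. Foxp1, a forkhead factor gene of 597 kb, had 6, all inside. Msi1, which encodes an RNA-binding protein of neural stem cells, and its neighbours Pla2g1b and Sirt4 had the same 7 peaks on chromosome 5, of which 1 was inside Msi1 and 4 inside Sirt4, and 4 lay at the snRNA genes Gm24265 and Gm24407. BC107364 and Fcgr3 had 6 each, every one of them within 100 bp of a tRNA or snRNA gene.

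A repeated array on chromosome 4 gave 6 Halo-Sox2-only peaks between 88763660 and 88803214. The array holds interferon-like genes, among them Gm13271, Gm13272 and Gm13275, and the windows of these 3 genes each held 6 Halo-Sox2-only, 1 other Halo-Sox2, 0 endogenous Sox2, 10 Halo-Sox2M and 2 Halo-Sox2D peaks. For each of the 6, Halo-Sox2M was the nearest list, at 3783, 2080.5, 2075.5, 846.5, 848.5 and 847.5 bp. The last 3 distances differ by 2 bp at most. The peak at Gm13287 stood in a promoter whose sequence at the peak, printed above, recurs in 4 other genes of the promoter table, so its placement among the copies is uncertain.

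Small RNA genes, which were looked at after the values of the lists were seen, had Halo-Sox2-only peaks on the gene itself. Within 100 bp of a tRNA gene, the templates for transfer RNA copied by RNA polymerase III, lay 26 peaks (0.703%, interval 0.480 to 1.03), 19 of them inside, at 25 of 408 genes. The share was 0.341% near endogenous Sox2 (5 peaks, interval 0.146 to 0.795) and 1.65% near only a mutant (11 peaks, interval 0.926 to 2.94), and these intervals overlap that of the Halo-Sox2-only peaks. Of the 26, 10 lay in the tRNA clusters of chromosome 13 and 6 on chromosome 1. Their distance to any other list ranged from 0.607 kb at n-TLcag7 to 174 kb at n-TEttc7.

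At snRNA genes, the templates of spliceosomal and histone-processing RNAs, 15 Halo-Sox2-only peaks lay within 100 bp, at 11 genes, 10 of them inside (0.406%, interval 0.246 to 0.668). The share was 0.273% near endogenous Sox2 (4 peaks, interval 0.106 to 0.699) and 1.05% near only a mutant (7 peaks, interval 0.511 to 2.16), and both intervals overlap that of the Halo-Sox2-only peaks. Peaks of exactly 18 bp began 69 bp from the lower end of Gm26110, Rnu1b2 and LOC115489800 and 77 or 78 bp from that of Rnu1b1, Gm22042 and Rnu1b6. The gene table gives these genes 165 or 166 bp and no strand. Read from the opposite end, the first 3 peaks lie 78 or 79 bp and the other 3 lie 70 bp from the gene's upper end. The 2 placements are thus near mirror images. Without strand they cannot be told apart from 1 placement in genes that run in opposite directions. Gm24265 and Gm24407, neighbours of 141 bp each beside Sirt4, both had an 18-bp peak 34 bp from the lower end and a second just outside the gene. Near-identical copies can exchange reads, and how reads with several matches were placed is not given in the sources used here, so the copy that each peak belongs to is uncertain. The peak at Rnu7 began 82 bp below the gene's lower end.

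**Figure D5:**
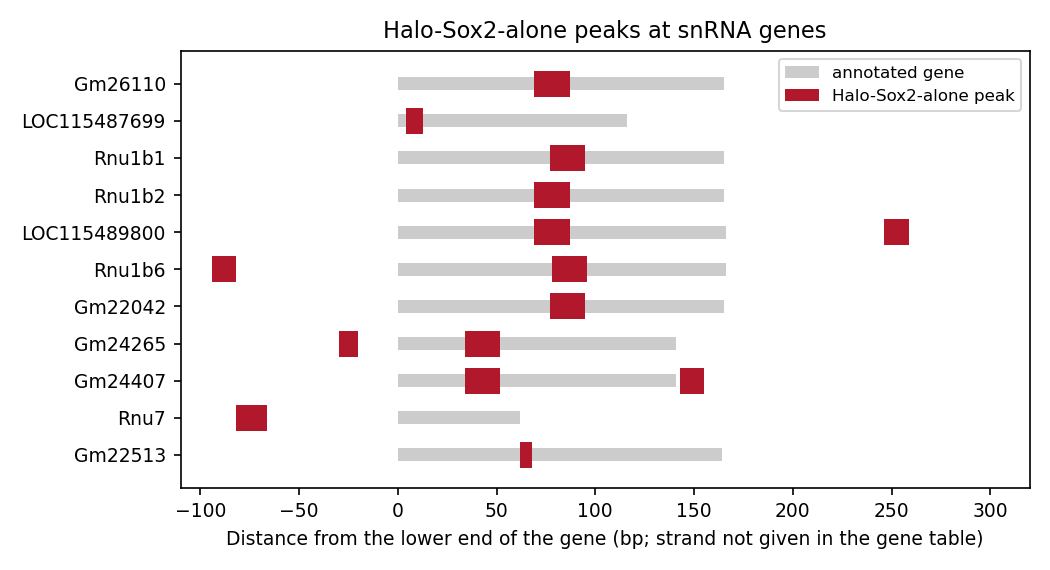
Halo-Sox2-only peaks (red blocks) drawn to scale on the 11 snRNA genes (grey bars) within 100 bp of one; the horizontal axis is the distance in bp from the lower end of the gene and the vertical axis lists the genes. The 18-bp peaks fall at 69 bp in 3 genes, at 77 or 78 bp in 3 and at 34 bp in 2.

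Only 1 Halo-Sox2-only peak was at a snoRNA gene and 1 at a microRNA gene. The first, on chromosome 7 at 45127439 to 45127451, lay within Snord32a and within its host Rpl13a, 3.18 kb from any other list. The other touched the end of Mir1955. None lay at an annotated rRNA gene.

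Histone genes stood out among promoters by count. Of 62 histone genes in the promoter table, 5 (8.06%) had a Halo-Sox2-only peak in the window, H2ac10, H2ac20, H2ac23, H2bc23 and H4c3, against 117 of 17492 protein-coding genes (0.669%). H2ac23 and H2bc23 run in opposite directions from a common promoter and have the same peak, so the 5 genes rest on 4 peaks. At H2ac23 the bases around the peak occur at 2 other genes of the table, H2ac24 and H4bc24. Since the family was picked after these values were seen, the count is a description.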

How the data were processed

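ChIP-exo peaks were called by the authors in 1 library for each of 4 forms of Sox2, and the 4 deposited lists give only positions (chromosome, start, end), with no other value. Bowtie2 and mm10 stand in the submitters' processing notes; for the peak caller, its thresholds, repeated reads and versions, the entry is "not given in the sources used here", and depth is unknown.

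Starts were turned to 1-based positions. Distances between centres used pandas 2.3.3, numpy 2.4.6 and Python 3.11.15, and the group was counted again with bedtools 2.31.1. Gene positions came from the RefSeq table of GRCm38.p6 (21887 protein-coding genes), and strand and sequences from its promoter table, which matched 17492 of them and holds no chromosome 18, where 112 Halo-Sox2-only peaks lie. All 223 listed genes matched the gene table. Wilson and Newcombe intervals are at 95% and cover counting error only. There is no test between libraries, and p-values were not computed. On a simulated Halo-Sox2 list as long as the kept list, 3486 of 3486 planted lone peaks were recovered. The other simulated lists divided that length between them, and the simulated peaks had no close neighbours. This checks the code of the rule and says nothing about the real lists.

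The peaks and the gene lists were chosen with earlier results of these data known. Named genes are the 25 listed genes with most Halo-Sox2-only peaks, all 24 listed genes with one inside or within 1 kb (the rule asked for up to 12), the 12 protein-coding genes with most, those nearest the 8 largest groups, those at the distance limit, and Sox2, Pou5f1 and Nanog. One gene that this rule names is not reported here. The alternatives tried were other distances, bin filters, lists left out, gene windows and annotations. The Sox element was to be counted at every peak; with no genome used here it was counted in promoters.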

Additional observations from a re-analysis of the deposited data

How the results depend on the processing

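The share of Halo-Sox2 peaks standing alone (63.4%) moved with the rule: 65.7% at 250 bp, 61.1% at 1000 bp, 52.4% at 5 kb, 68.3% with bins of 5 or more peaks dropped, 59.8% with no bins dropped, and 68.3% with neighbouring peaks joined. Leaving out a list gave 73.3% without Halo-Sox2D, 64.8% without Halo-Sox2M and 77.0% without endogenous Sox2. The share inside genes became 58.3% with all annotated genes. The share within 1 kb of a gene end (11.1%) became 12.4% without the Halo-Sox2D list, 9.998% without the endogenous list, 16.1% at 2 kb, 26.1% at 5 kb, 17.3% with all annotated genes, and 8.20% at starts only, which was added after seeing the data. The share with a neighbour within 100 bp (6.09%) became 7.98% without Halo-Sox2D, 10.9% without endogenous Sox2, 4.44% within 50 bp and 9.60% within 500 bp. The share with CATTGT in promoters (2.13%) became 0.709% with CATTGTT, 5.56% without Halo-Sox2D, 4.52% without endogenous Sox2, 2.99% with neighbouring peaks joined and 5.67% at 100 bp either side. The pluripotency genes with a Halo-Sox2-only peak went from 17 to 10 with bins of 5 or more dropped and 11 at 20 kb (all genes 22.3% and 15.3%); under the other 10 alternatives they were 12 to 23. Under all 8 changes of the rule, the shares inside genes (46.98% to 48.9%) and at gene ends (9.998% to 12.4%) stayed above those of peaks near endogenous Sox2 (35.4% to 42.7% and 4.74% to 7.44%). No paired analysis was possible because each form of Sox2 has 1 library with no replicate number. The Sox element at every peak was not run. With positions alone, peak strength cannot be compared.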
